A study of Mus musculus with 6 samples.

Results

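The genes described are 36 enzymes of purine and pyrimidine nucleotide synthesis, phosphorylation, salvage and breakdown, picked by gene symbol from the 18059 genes of the deposited tables. All 36 were found in the tables and all 36 passed the filter on low counts, which left 13270 genes to test. The cells were primary cardiac fibroblasts, the connective tissue cells of the heart, from C57BL/6 mice of 1 to 2 weeks, cultured with 15% serum. For 12 hours 3 libraries' cells received saline (control) and 3 libraries' cells received PDGF-DD, a dimer formed by platelet-derived growth factor D, at a dose the labels give as 20 µM, a unit that is doubtful for a growth factor. The protocols say that all cells came from mice with a global PDGF-D knockout, whereas the genotype field names the saline samples control and the treated ones PDGF-D -/-. If that field is right, genotype and treatment cannot be told apart. The groups used here are those of the sample titles.

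Cells make purine nucleotides by building the ring stepwise on an activated ribose phosphate until IMP is reached, from which AMP and GMP branch. Pyrimidines are made the other way round: the ring is closed before the ribose phosphate is added, and UMP is then converted to UTP and CTP. Salvage enzymes return free bases and nucleosides to the pool, and ribonucleotide reductase and the thymidylate enzymes turn ribonucleotides into the deoxynucleotides (dNTPs) that DNA synthesis consumes. Many of these genes are known targets of the transcription factors MYC and E2F, and dNTP enzymes are known to be most expressed in cells that enter S phase.

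The libraries held between 21221114 and 21371829 estimated read counts, so depth hardly differed. Levels below are CPM, library-size-scaled counts with TMM factors, given as mean ± SD over 3 libraries, and changes are log2 fold changes from edgeR's quasi-likelihood test with Benjamini-Hochberg adjustment over all tested genes. A gene is said to rise or fall where that adjusted p was under 0.05. Whether replicates were grown as separate cultures is not in the labels, and p-values then reflect how far these libraries vary, a spread that may be technical. Control replicate 1 stood apart: its counts gave chi-square values, over their degrees of freedom, of 5.11 and 5.7 against the remaining controls, which gave 2.48 against each other. Summed fibroblast markers were 44632 to 46575 CPM in control and 39317 to 40019 with PDGF-DD, and 7 of the 10 markers fell and 1 rose. Markers of other cell types were present: summed levels were 163 to 174 and 118 to 133 CPM for 10 cardiomyocyte genes, 248 to 265 and 229 to 237 for 8 endothelial genes, 187 to 206 and 169 to 176 for 8 macrophage genes and 407 to 428 and 332 to 337 for 7 mural genes, in control and PDGF-DD respectively. No marker was at 0 in every library. Each of these sums was lower with PDGF-DD. Of the single markers, 3 of 7 tested cardiomyocyte genes and 3 of 6 tested mural genes fell, and 1 more mural gene, Cspg4, rose. Both shares that fell were above the 17.4% of all tested genes. Of the endothelial genes 1 of 8 fell (Tek) and of the macrophage genes 1 of 8 (Lyz2). That was 12.5% in each list, below the 17.4%. The cardiomyocyte sum was mostly Tnnt2 (156 and 115 CPM) and the macrophage sum mostly Lyz2 (139 and 121 CPM). The fibroblast sum was mostly Col1a1 (20773 and 17880 CPM), Col1a2 (11522 and 10543 CPM) and Col3a1 (11330 and 9274 CPM). In the mural sum the largest drop was that of Notch3 (169 and 86.6 CPM), while Mcam stood at 108 and 102 CPM. The part of these markers in the results below was not tested. In bulk RNA, a change in the share of cells of one type and a change in the RNA per cell cannot be told apart.

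Transcripts for nucleotide synthesis were mostly higher with PDGF-DD. Of the 36 genes 27 rose and 2 fell, against 19.1% higher and 17.4% lower among all tested genes. The median log2 fold change was 0.29 for the 36 genes and -0.01 for all tested genes. Changes were modest in size, from -0.19 for Ctps2 to 0.70 for Rrm2, and no member doubled. The libraries of the groups did not overlap for 28 members that were higher and 2 that were lower, compared with 23.6% higher and 23.5% lower (47.1% in all) among all tested genes. Without control replicate 1 the members numbered 29 higher and 2 lower. The number that fell was 1 in DESeq2, 1 in limma on log2(TPM + 1), called the TPM fit below, and 1 without either of control replicates 2 and 3 or either of PDGF-DD replicates 1 and 3. It was 3 under upper-quartile scaling, with Adk added, and without control replicate 3 the 1 gene was Adk, since Ctps2 and Samhd1 both missed the threshold.

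**Figure D1:**
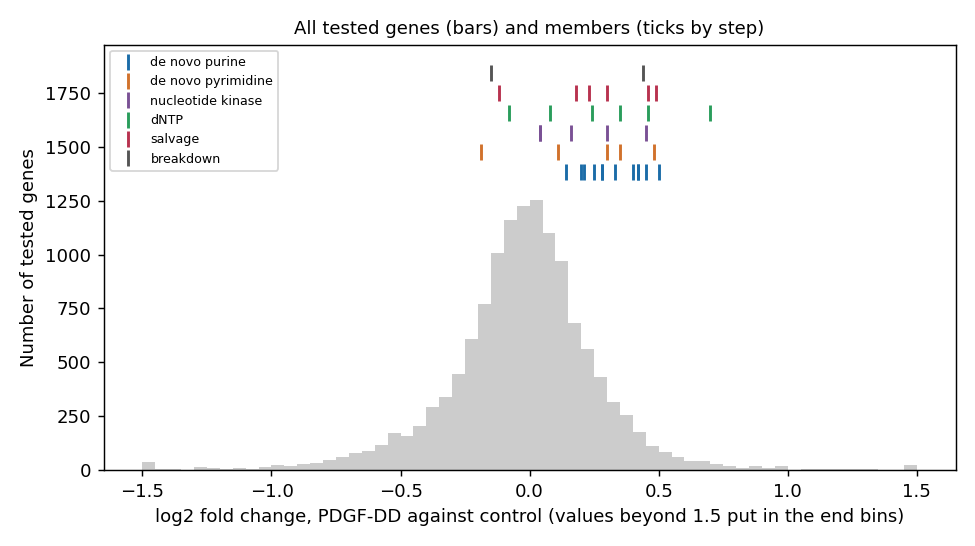
The bars count all 13270 tested genes by log2 fold change (x axis, PDGF-DD against control), and the ticks above mark the 36 members by step. Most ticks lie right of 0, with Rrm2 at 0.70 the farthest and Ctps2 at -0.19 the lowest.

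Most enzymes of purine synthesis rose, by differing amounts. Of 12 genes from ribose phosphate activation to AMP and GMP, 11 rose and none fell, with a median log2 fold change of 0.31 and a range from 0.14 to 0.50. Ppat (Entrez gene 231327) encodes the amidotransferase that commits ribose phosphate to purines. Its level was 25.3, 22.9 and 22.7 CPM in the control libraries and 35.4, 31.6 and 33.3 CPM with PDGF-DD. The groups were well apart, and Ppat rose 1.42-fold (log2 fold change 0.50, SE 0.06, edgeR adjusted p = 7.11e-07). Prps1 (Entrez gene 19139), a synthetase of the activated ribose phosphate, stood at 26.6, 24.2 and 23.8 CPM in control libraries and 32.0, 35.7 and 34.0 CPM after PDGF-DD. It rose 1.36-fold, whereas its paralog Prps2 did not pass (log2 fold change 0.21, 95% interval 0.03 to 0.38, edgeR adjusted p = 0.0621). Prps2 levels of 23.6, 29.4 and 26.5 CPM in control overlapped with 32.9, 27.2 and 31.7 CPM with PDGF-DD. Prps2 passed without the low-count filter (adjusted p = 0.00737), without control replicate 2 (0.0113) and without PDGF-DD replicate 2 (0.00617), while over all its alternatives the adjusted p ran from 0.00617 to 0.198.

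The enzymes that build the ring followed. Gart (Entrez gene 14450), a protein with 3 catalytic activities of the pathway, gave 68.9, 67.1 and 67.1 CPM in control libraries and 88.9, 90.2 and 92.4 CPM after PDGF-DD, and rose 1.34-fold (edgeR adjusted p = 2.36e-08). Replicates differed little here, and every treated library was above every control library. Pfas, which adds the next ring nitrogen, rose from 28.4 ± 1.13 to 38.0 ± 1.43 CPM, again 1.34-fold. Paics (Entrez gene 67054), a carboxylase and synthetase, changed least of the group: 126, 122 and 124 CPM in control against 133, 138 and 139 CPM with PDGF-DD, a log2 rise of 0.14 (edgeR adjusted p = 0.00617). Adsl, the lyase used both before IMP and on the AMP branch, rose by a log2 fold change of 0.28. Atic, which closes the ring to IMP, rose from 121 ± 2.06 to 151 ± 3.67 CPM (0.33 on the log2 scale, edgeR adjusted p = 2.83e-07).

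Past IMP, both branches rose. On the GMP branch Impdh2 (Entrez gene 23918), an IMP dehydrogenase, stood at 102, 95.3 and 95.9 CPM in control libraries and 127, 128 and 131 CPM after PDGF-DD, a rise of 1.32-fold (edgeR adjusted p = 3.01e-08). Its paralog Impdh1 rose 1.19-fold, from 111, 113 and 111 CPM to 130, 137 and 131 CPM, and Gmps, the GMP synthetase, rose 1.22-fold. On the AMP branch Adss, the adenylosuccinate synthetase, rose from 60.6 ± 2.92 to 69.8 ± 2.42 CPM (log2 fold change 0.20).

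**Figure D2:**
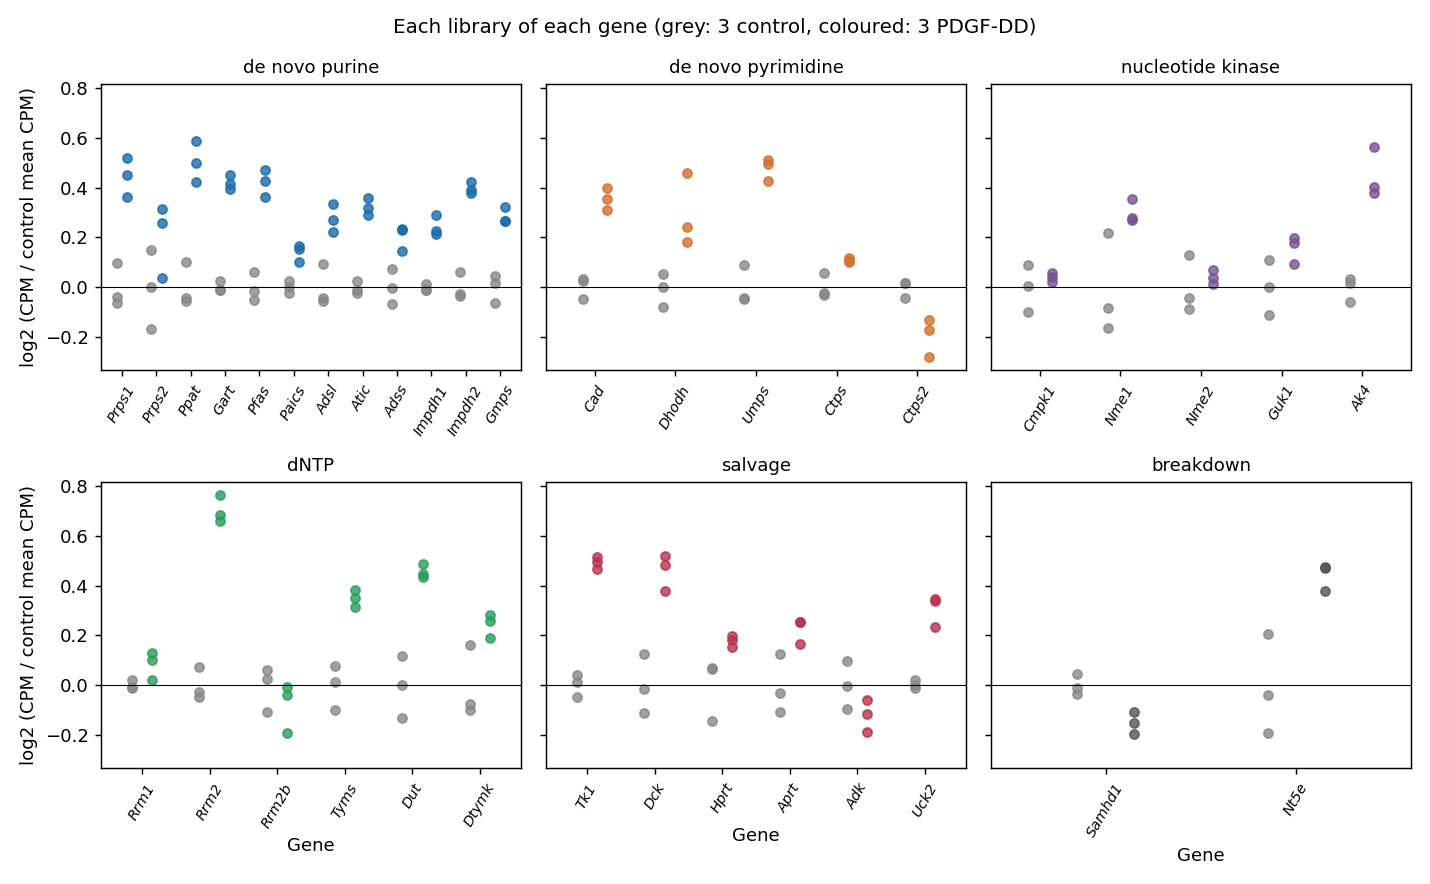
Each point is 1 library, as log2 of its CPM over the control mean CPM of that gene (y axis), for the genes of each step (x axis); control libraries are grey and PDGF-DD libraries coloured. In the purine panel only the Prps2 points of the groups overlap.

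Ppat and Paics lie next to each other on opposite strands. In the RefSeq table of build GRCm38.p6 their start sites are 276 bases apart, at chr5:76951302 for Paics (plus strand) and chr5:76951578 for Ppat (minus strand), with the starts of the genes overlapping. Whether counting used strand is not stated in these sources, and reads of the overlap cannot be assigned with certainty. The 95% intervals of the log2 fold change were 0.37 to 0.63 for Ppat and 0.06 to 0.22 for Paics, a pair singled out after its values were seen. Of the members, 4 more overlap another protein-coding gene in that table: Gmps, Cad, Ctps2 and Tk1.

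MYC is known to bind the E-box letters CACGTG. Promoter windows of 250 bases before and 50 bases from each start (RefSeq, GRCm38.p6) were searched for that palindrome. Whether MYC takes part in these changes was not tested. The table held 44 windows for 33 of the 36 members, and none for Dhodh, Pfas and Rrm2b. Of the members 8 had more than 1 window, and windows of the same gene can share bases. Shares of windows therefore depend on how many starts each gene has. The E-box letters were in 8 of the 44 windows (18.2%), compared with 7.15% of all 32851 windows and 9.67% of the 13564 windows of tested genes. They belonged to 7 genes, whose median log2 fold change was 0.33, compared with 0.27 for the 26 genes without a match. The stretches around each match are printed to show the distance from the start, with the E-box in capitals.
Atic, chr1:71557109-71557155, plus strand, 7 bases before the start: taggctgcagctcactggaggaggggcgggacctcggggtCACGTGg
Nme1, chr11:93968273-93968330, minus strand, 18 bases before the upstream start: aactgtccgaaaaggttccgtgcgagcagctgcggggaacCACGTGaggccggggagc
Nme1, chr11:93968026-93968094, minus strand, 29 bases before the downstream start: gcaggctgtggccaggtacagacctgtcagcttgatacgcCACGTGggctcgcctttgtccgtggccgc
Tyms, chr5:30073641-30073726, minus strand, 61 bases before the start: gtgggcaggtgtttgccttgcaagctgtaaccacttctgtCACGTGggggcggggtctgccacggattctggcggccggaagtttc
Impdh2, chr9:108560286-108560371, plus strand, 110 bases before the start: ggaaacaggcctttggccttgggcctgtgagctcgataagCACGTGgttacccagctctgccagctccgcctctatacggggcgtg
Dtymk, chr1:93802037-93802122, minus strand, 148 bases before the start: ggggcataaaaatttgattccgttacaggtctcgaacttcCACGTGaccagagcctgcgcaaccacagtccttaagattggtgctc
Paics, chr5:76951059-76951144, plus strand, 203 bases before the start: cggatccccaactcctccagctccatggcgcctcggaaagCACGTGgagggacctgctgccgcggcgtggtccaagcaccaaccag
Ak4, chr4:101419453-101419534, plus strand, 214 bases before a start: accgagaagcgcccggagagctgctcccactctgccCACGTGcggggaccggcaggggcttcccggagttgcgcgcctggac
The log2 fold changes of these genes ran from 0.14 for Paics to 0.45 for Ak4, and a match is a description of the letters only.

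E2F-type letters (TTTCCCGC, TTTCGCGC, TTTGCCGC or TTTGGCGC, both strands) were in 2 of the 44 windows (4.55%), against 2.26% of all windows and 3.81% of those of tested genes. The matches were in Prps2, after the start, and in Ppat, whose window held 2 of them. The stretch of the Ppat promoter from 230 to 131 bases before the start is shown because it holds both, in capitals as the reverse complement.
Ppat, chr5:76951709-76951808, minus strand: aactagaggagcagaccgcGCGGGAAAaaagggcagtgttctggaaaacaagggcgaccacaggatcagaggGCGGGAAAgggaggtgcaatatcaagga
CCAAT, the box bound by NF-Y, was in 36.4% of member windows and 37.4% of all windows on either strand. The 13 genes with a match had a median log2 fold change of 0.30, compared with 0.28 for the 20 genes without. Ctps2 and Adk, whose changes were negative, held the box. So did Rrm2, the member that rose most, whose 100 bases before the start are shown with the box in capitals.
Rrm2, chr12:24708154-24708253, plus strand: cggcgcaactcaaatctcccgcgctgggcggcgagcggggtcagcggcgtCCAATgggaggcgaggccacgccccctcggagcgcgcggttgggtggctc
Matches of different motifs shared bases in 0 cases.

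In pyrimidine synthesis the enzymes up to UMP rose and the CTP synthetases parted. Of 5 genes 4 rose and 1 fell, with a median log2 fold change of 0.30. Cad (Entrez gene 69719), the protein that carries the opening activities of the pathway, gave 122, 128 and 129 CPM in control libraries and 156, 161 and 166 CPM after PDGF-DD, a rise of 1.27-fold (edgeR adjusted p = 1.45e-07). Umps (Entrez gene 22247), which makes UMP, stood at 48.5, 44.1 and 44.2 CPM in control libraries and 61.3, 64.9 and 64.3 CPM after PDGF-DD. It changed most of the 5, by 1.39-fold (log2 fold change 0.48 ± 0.05 SE, edgeR adjusted p = 3.48e-08), with the groups far apart. Dhodh, the mitochondrial dehydrogenase between them, was low, at 10.8, 10.4 and 9.83 CPM in control libraries and 11.8, 12.3 and 14.3 CPM after PDGF-DD, resting on 208 to 306 counts per library. Dhodh rose by 0.30 on the log2 scale (edgeR adjusted p = 0.00816), which was lost without PDGF-DD replicate 3 (adjusted p = 0.0774).

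Ctps (Entrez gene 51797), the more abundant CTP synthetase, gave 184, 173 and 174 CPM in control libraries and 190, 192 and 191 CPM after PDGF-DD. This was a small rise of 1.08-fold (log2 fold change 0.11, edgeR adjusted p = 0.0214). Ctps2 (Entrez gene 55936) gave 22.4, 23.4 and 23.4 CPM in control libraries and 19.0, 20.5 and 21.1 CPM after PDGF-DD. It was 1.14-fold lower (log2 fold change -0.19, SE 0.07, edgeR adjusted p = 0.0269). Groups did not overlap for either gene, but both calls were close to the threshold. Ctps did not pass under 6 of 13 alternatives (adjusted p from 0.00384 to 0.091 over all of them). These were leaving out either of control replicates 2 and 3 or PDGF-DD replicate 3, upper-quartile scaling, the TPM fit and the replicate block. Ctps2 did not pass under 5 (adjusted p from 0.0151 to 0.159 over all 13), which were leaving out either of control replicates 2 and 3 or PDGF-DD replicate 1, DESeq2 and the TPM fit. Without PDGF-DD replicate 3, where Dhodh and Ctps both missed the threshold, 2 of the 5 genes rose.

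**Figure D3:**
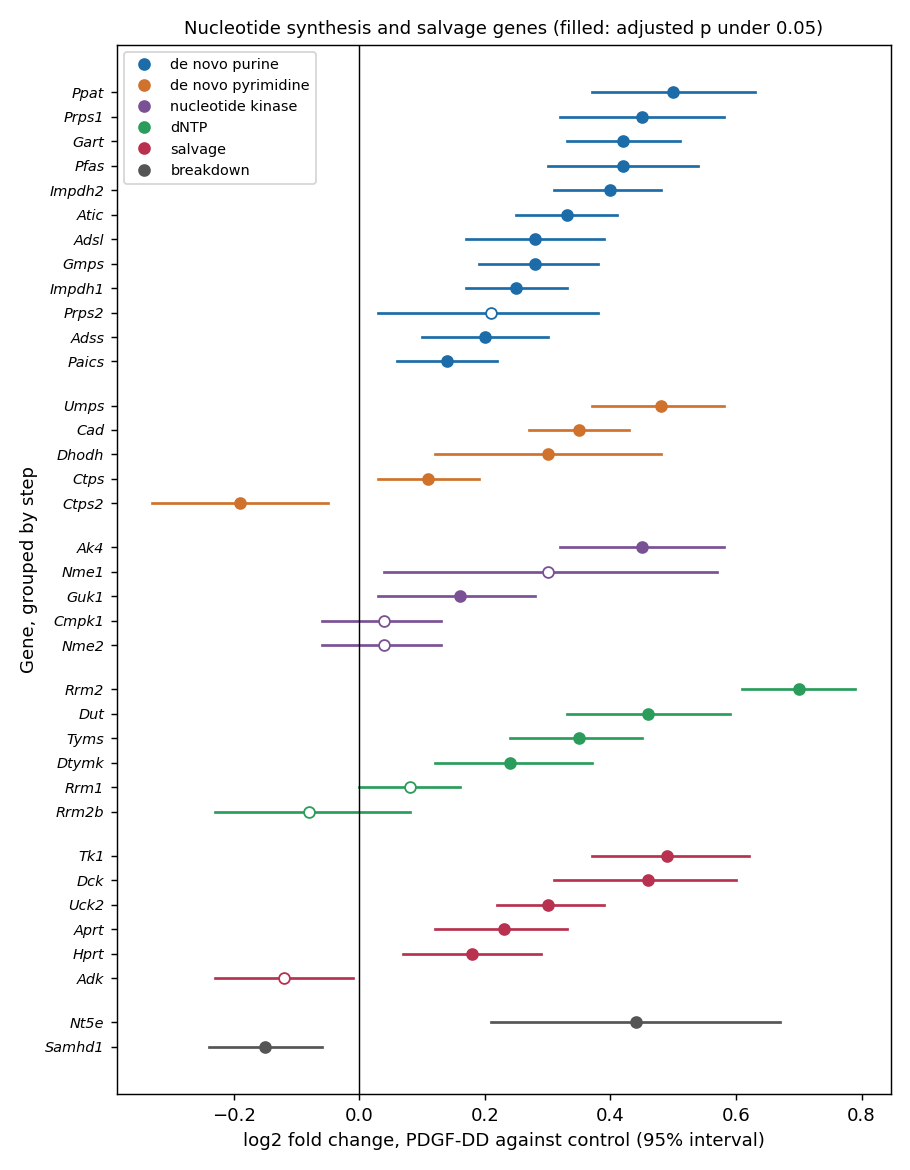
Points give the log2 fold change of each gene (x axis) with its 95% interval, grouped by step (y axis), and filled points passed an adjusted p of 0.05. All 12 purine genes lie above 0, while Ctps2 in the pyrimidine group and Samhd1 in the breakdown group lie below it.

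Among the kinases that bring nucleotides to the di- and triphosphate level, 2 of 5 genes rose and none fell, with a median log2 fold change of 0.16. The share that passed in either direction was near the 36.5% of all tested genes, of which 19.1% rose. Ak4 (Entrez gene 11639), a mitochondrial adenylate kinase, gave 25.4, 25.7 and 24.1 CPM in control libraries and 32.6, 33.2 and 37.1 CPM after PDGF-DD, and rose 1.37-fold (edgeR adjusted p = 2.98e-06). Guk1, the guanylate kinase, gave 33.5, 31.1 and 28.8 CPM in control libraries and 35.2, 35.7 and 33.2 CPM after PDGF-DD. Its groups overlapped, its adjusted p was 0.0493 (log2 fold change 0.16), and it missed the threshold under 7 of 13 alternatives (adjusted p from 0.00979 to 0.244 over all of them). Those 7 were leaving out either of control replicates 2 and 3 or either of PDGF-DD replicates 1 and 2, upper-quartile scaling, DESeq2 and the replicate block. Cmpk1, which phosphorylates UMP and CMP, averaged 89.2 ± 5.88 CPM in control and 91.6 ± 1.06 CPM after PDGF-DD, and missed the threshold (log2 fold change 0.04, 95% interval -0.06 to 0.13).

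For Nme1 and Nme2, nucleoside diphosphate kinases that make triphosphates, control replicate 1 was the highest control library. Nme1 (Entrez gene 18102) gave 142, 115 and 109 CPM in control libraries and 148, 156 and 147 CPM after PDGF-DD. The groups did not overlap, but control replicate 1 lay closer to the treated libraries than to its own group, and Nme1 did not pass (log2 fold change 0.30, SE 0.11, edgeR adjusted p = 0.0779). Without that library its log2 fold change was 0.43 (adjusted p = 3.14e-09), and it also passed in DESeq2 (0.0425), in the TPM fit (0.0035) and with the replicate block (0.00183), the highest value under any alternative being 0.216. Nme2 (Entrez gene 18103) gave 421, 374 and 362 CPM in control libraries and 388, 404 and 395 CPM after PDGF-DD, with control replicate 1 above every treated library. Its log2 fold change was 0.04 (edgeR adjusted p = 0.565), and 0.11 without control replicate 1 (adjusted p = 0.0252; highest under any alternative 0.948). Without that library 4 of the 5 kinases rose, and without either of control replicates 2 and 3 or either of PDGF-DD replicates 1 and 2, or under upper-quartile scaling, 1 rose.

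Among dNTP enzymes the reductase subunit Rrm2 changed most of all members. Of 6 genes 4 rose and none fell, with a median log2 fold change of 0.30. Rrm2 (Entrez gene 20135), the small subunit of ribonucleotide reductase known for its S-phase expression, gave 80.5, 75.1 and 74.0 CPM in control libraries and 123, 121 and 130 CPM after PDGF-DD. Every treated library was far above every control library, and the rise was 1.63-fold (log2 fold change 0.70, SE 0.05, edgeR adjusted p = 5.23e-12). Rrm1 (Entrez gene 20133), the large subunit that pairs with it, gave 226, 222 and 221 CPM in control libraries and 226, 239 and 244 CPM after PDGF-DD. PDGF-DD replicate 1 lay just above the highest control library, and Rrm1 did not pass (log2 fold change 0.08, 95% interval 0.00 to 0.16, edgeR adjusted p = 0.0965), except without that library (adjusted p = 0.039; highest under any alternative 0.275). Rrm2b, the alternative small subunit known as a p53 target in DNA damage, stood at 18.7, 17.1 and 19.2 CPM in control libraries and 18.3, 16.1 and 17.9 CPM after PDGF-DD. Its groups overlapped and it did not pass (log2 fold change -0.08, 95% interval -0.23 to 0.08).

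The thymidylate route rose. Dut (Entrez gene 110074), the dUTPase that keeps uracil out of DNA and yields dUMP, gave 29.0, 26.7 and 24.4 CPM in control libraries and 36.4, 36.1 and 37.4 CPM after PDGF-DD, a rise of 1.37-fold (edgeR adjusted p = 2.15e-06). Tyms, the thymidylate synthase that turns dUMP into dTMP, rose 1.27-fold from 51.5 ± 3.18 to 65.5 ± 1.55 CPM. Dtymk, the kinase that follows, gave 38.6, 32.2 and 32.7 CPM in control libraries and 41.2, 39.3 and 42.0 CPM after PDGF-DD. Control replicate 1 was again the highest of its group, yet below each treated library, and Dtymk rose 1.18-fold (edgeR adjusted p = 0.0032).

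Most salvage enzymes among the members rose as well, the deoxynucleoside kinases Tk1 and Dck by the most. Of 6 genes 5 rose and none fell, with a median log2 fold change of 0.27. Tk1 (Entrez gene 21877), the cytosolic thymidine kinase, gave 21.5, 21.9 and 20.6 CPM in control libraries and 30.4, 29.4 and 30.0 CPM after PDGF-DD, a rise of 1.41-fold (edgeR adjusted p = 4.87e-07). Dck (Entrez gene 13178), the deoxycytidine kinase, gave 20.4, 18.5 and 17.3 CPM in control libraries and 26.1, 24.3 and 26.8 CPM after PDGF-DD, a rise of 1.37-fold (edgeR adjusted p = 1.13e-05). Both sets of treated libraries lay clear of their controls. Uck2, the uridine-cytidine kinase, rose 1.24-fold from 125 ± 1.64 to 155 ± 6.46 CPM.

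The purine base transferases had smaller rises. Aprt, which salvages adenine, rose 1.17-fold from 73.1 ± 6.07 to 85.4 ± 2.98 CPM, and Hprt, which salvages hypoxanthine and guanine, rose 1.13-fold from 55.5 ± 4.58 to 62.8 ± 0.98 CPM. The call for Hprt (edgeR adjusted p = 0.0102) was lost without control replicate 3 (adjusted p = 0.0995). Adk, the adenosine kinase, was the salvage gene with a negative change: 60.2, 56.0 and 52.6 CPM in control overlapped with 49.3, 51.8 and 54.0 CPM with PDGF-DD, and it did not pass (log2 fold change -0.12, edgeR adjusted p = 0.0821). Adk passed as lower under upper-quartile scaling (adjusted p = 0.0435) and without control replicate 3 (0.0248), with a highest value of 0.367.

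The enzymes that take nucleotides apart went in opposite directions. Samhd1 (Entrez gene 56045), the hydrolase that degrades dNTPs, gave 75.7, 74.5 and 78.8 CPM in control libraries and 70.9, 68.7 and 66.7 CPM after PDGF-DD. Its groups did not overlap and it was 1.11-fold lower (log2 fold change -0.15, edgeR adjusted p = 0.0106), a call lost without control replicate 3 (adjusted p = 0.0521) or PDGF-DD replicate 3 (0.0897). Nt5e (Entrez gene 23959), the cell-surface nucleotidase that releases adenosine from AMP, was the member with the lowest level. It gave 4.81, 6.33 and 5.34 CPM in control libraries and 7.13, 7.62 and 7.60 CPM after PDGF-DD, resting on 102 to 163 counts per library, and rose 1.36-fold (edgeR adjusted p = 0.00308).

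Set side by side, the median log2 fold changes were 0.31 for purine synthesis, 0.30 for pyrimidine synthesis, 0.30 for dNTP enzymes, 0.27 for salvage and 0.16 for the kinases, all above the -0.01 of all tested genes. The spread within each step was larger than the distance between these medians. Differences between steps were not tested. The deposited TPM values, which are per transcript length, put Nme2 first among the members at 1118 ± 64.8 TPM in control, Nme1 second at 265 ± 31.5 and Aprt next at 204 ± 11.4. Ctps (152 ± 0.69 TPM) and Uck2 (147 ± 5.73 TPM) followed within about their spread of each other, and so did Paics (135 ± 2.05 TPM) and Impdh2 (134 ± 1.19 TPM). At the low end stood Pfas (10.3 ± 0.65 TPM), Rrm2b (9.44 ± 0.63 TPM) and Nt5e (3.56 ± 0.58 TPM). Summed over a step, levels went from 712 ± 10.4 to 868 ± 10.1 TPM for purine synthesis, from 248 ± 1.48 to 282 ± 5.02 TPM for pyrimidine synthesis, from 388 ± 8.49 to 481 ± 17.2 TPM for dNTP enzymes and from 579 ± 16.4 to 669 ± 17.7 TPM for salvage. The kinases summed to 1579 TPM in control and 1688 TPM after PDGF-DD, with an SD of 101 TPM in control, and the breakdown genes to 51.1 ± 2.04 and 47.6 ± 0.91 TPM.

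**Figure D4:**
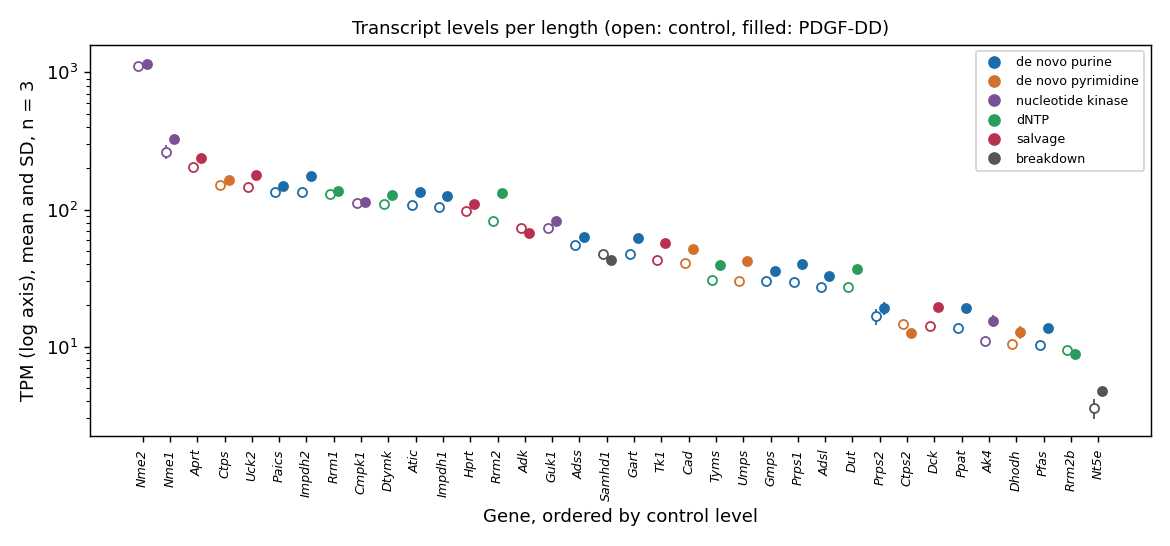
Mean TPM with SD over 3 libraries is plotted on a log axis (y) for each gene, ordered by control level (x), with control open and PDGF-DD filled. Nme2 is the most abundant at 1118 TPM in control and Nt5e the least at 3.56 TPM.

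Paralogs of the same enzyme were compared as the log2 ratio of their CPM within each library, which scaling between libraries cannot change. Of 5 pairs, 4 had groups that did not overlap, each with an exact two-sided permutation p = 0.1 (adjusted p = 0.125 over the 5 pairs), the smallest that 3 against 3 libraries can give. The share of such ratios among other gene pairs was not computed. Among single tested genes 47.1% had groups that did not overlap, and the 5 pairs were chosen with earlier results of these data known. Rrm2/Rrm2b was 2.11, 2.13 and 1.94 in control and 2.75, 2.91 and 2.86 with PDGF-DD, a difference of 0.78. In TPM this was 8.71 ± 0.67 Rrm2 transcripts per Rrm2b transcript in control and 15.0 ± 0.83 with PDGF-DD. Ctps/Ctps2 moved from 2.94 ± 0.08 to 3.24 ± 0.07, a difference of 0.31, as Ctps rose and Ctps2 fell. Nme1/Nme2 was -1.57, -1.70 and -1.73 in control and -1.39, -1.37 and -1.42 with PDGF-DD, a difference of 0.27. Control replicate 1, the highest control library for both genes, was also the highest in their ratio, and without it the difference was 0.32. Impdh2/Impdh1 differed by 0.15. Prps2/Prps1 overlapped between the groups, with a difference of -0.24 (exact permutation p = 0.3, adjusted p = 0.3), which was -0.12 without PDGF-DD replicate 2 and -0.37 without control replicate 1.

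Paralogs share sequence, so some reads can fit both. RSEM, the tool the processing notes name, divides such reads by estimated share, with settings not given in those notes. Between the longest reading frames of the GENCODE transcripts, identity was 80% for Nme1 and Nme2 (367 of 459 bases), 79.9% for Prps2 and Prps1, 75.1% for Impdh2 and Impdh1, 73.5% for Rrm2 and Rrm2b and 69.9% for Ctps and Ctps2. The longest stretch without a mismatch in the alignments was 29 bases, in both the Nme and the Impdh pair. That of the Nme pair is shown, since their ratio is among the results, in capitals because every base is shared.
Nme1 and Nme2 shared stretch: CAAGTTGGCAGGAACATCATTCATGGCAG

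**Figure D5:**
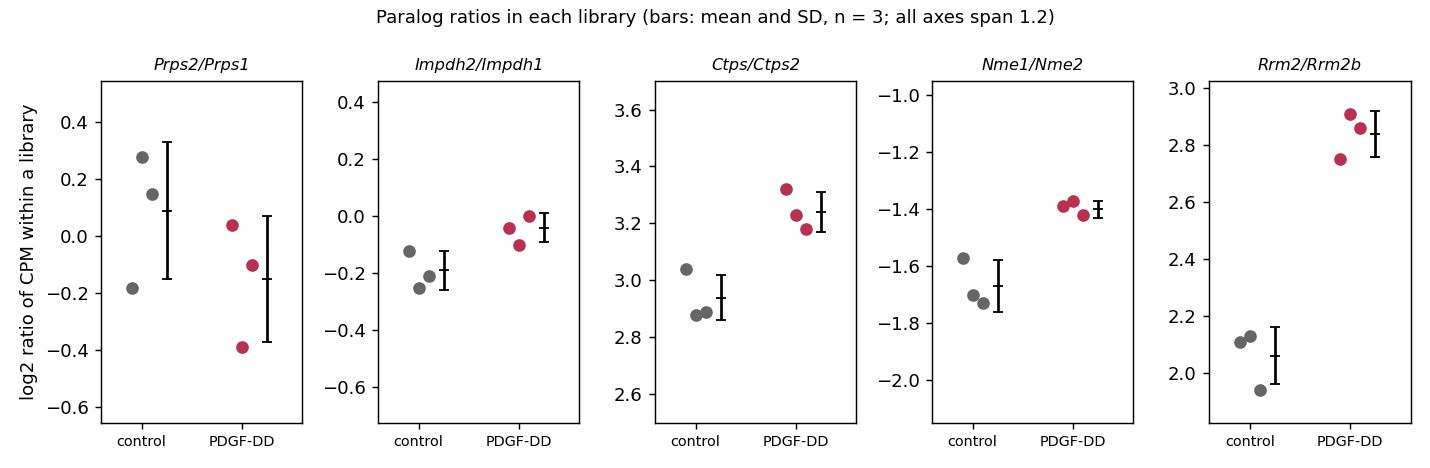
Each point is the log2 ratio of the CPM of 2 paralogs in 1 library (y axis) for control and PDGF-DD (x axis), with the mean and SD of 3 libraries beside it and the same span on every axis. Groups are separate in every pair but Prps2/Prps1, and Rrm2/Rrm2b shows the largest shift of these 5 pairs, 0.78.

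Other genes of nucleotide metabolism, in lists that hold no member, moved both ways. Of 57 such genes in 4 lists, 52 were tested, 17 rose (32.7%) and 4 fell (7.69%), with a median log2 fold change of 0.12. In either direction 40.4% passed, near the 36.5% of all tested genes, of which 19.1% rose and 17.4% fell. Among 15 further genes of synthesis and phosphorylation 4 rose and none fell, among them Ak6, up by 0.29 on the log2 scale, whose locus overlaps Taf9. Among 15 further salvage genes 5 rose and 1 fell. Mtap, the phosphorylase that frees adenine from methylthioadenosine, rose from 99.1 ± 1.65 to 160 ± 2.94 CPM, and Dctd, the deaminase that supplies dUMP from dCMP, from 15.1 ± 0.87 to 24.7 ± 1.17 CPM. Their log2 fold changes of 0.69 and 0.71 were close to that of Rrm2. The gene that fell was Ada, adenosine deaminase, from 54.9 ± 2.17 to 35.9 ± 0.96 CPM (-0.61 on the log2 scale, edgeR adjusted p = 5.66e-10).

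Of 19 tested genes of breakdown and pool cleaning 6 rose and 2 fell, 42.1% in either direction and again near the 36.5% of all tested genes. Enpp1, which splits extracellular ATP to AMP, rose by 0.47 on the log2 scale and Entpd6, a nucleoside diphosphatase, by 0.48, whereas Gda, the guanine deaminase, fell from 27.4 ± 1.53 to 16.9 ± 0.42 CPM and Entpd1, a cell-surface enzyme that degrades ATP and ADP, from 4.14 ± 0.23 to 2.96 ± 0.36 CPM. Of 3 tested nucleoside transporters the cell-surface carriers Slc29a1 and Slc29a2 rose by 0.40 and 0.51 and the lysosomal Slc29a3 fell by 0.16 on the log2 scale. Of 18 markers of DNA replication and cycling, such as the Mcm helicase genes, 18 rose, with a median log2 fold change of 0.54 and a range from 0.22 to 0.74. How far the changes of the dNTP and thymidine genes follow from more cells in S phase was not tested.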

How the data were processed

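Per the labels' protocols, poly(A) RNA of 6 samples was read by DNA nanoball sequencing. The submitters' processing notes name build mm9 and the tools RSEM 1.2.12, Bowtie2 2.2.5, HISAT2 2.0.4 and DESeq2 1.4.5. Annotation, strand setting and read filters: not given in the sources used here. The authors deposited estimated counts per gene (31.9% to 32.7% not whole), FPKM values (not used here) and TPM values, per the file headers.

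Estimated counts were rounded, filtered with filterByExpr, scaled with TMM factors (0.995 to 1.01) and tested with the robust quasi-likelihood test of edgeR 4.0.16 in R 4.3.3. The standard error is the log2 fold change over the square root of F. DESeq2 1.42.0, limma 3.58.1 on log2(TPM + 1), other scalings, no filter, a replicate block and leaving out each library were the alternatives. The fit was tested on simulated counts. The 36 members, the other lists and the 5 paralog pairs were chosen with earlier results of these data known. Named beyond the members are, from each list of other nucleotide genes, the 2 called genes with the smallest p in each direction, except 1 that is not reported here. Promoters are RefSeq's (GRCm38.p6), so no gene coordinates of the files' build are given.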

Additional observations from a re-analysis of the deposited data

How the results depend on the processing

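The number of the 36 genes that rose was 27 and lay between 24 and 28 under the alternatives other than leaving out control replicate 1 (29); with the replicate block it was 26. The number that fell was 2, but 1 in the DESeq2 Wald test and 1 in limma on log2(TPM + 1), 3 under upper-quartile scaling, where Adk was added, and from 1 to 2 when single libraries were left out. No member that rose or fell changed direction under any of the 13 alternatives. Of all tested genes 2023 to 2709 were higher and 1726 to 2636 lower. No shared deviation of same-numbered libraries was seen: their deviations from their group means correlated at -0.07, -0.09 and -0.03 across genes. These values cannot show whether same-numbered libraries were prepared together. With the replicate block the paralog differences were those of the main comparison, with exact sign-flip p = 0.25 for 4 pairs and 0.5 for Prps2/Prps1, where 0.25 is the smallest possible. Depth limits precision mainly for Nt5e and Dhodh.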
